A study of Mus musculus with 9 samples.

Results

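The sodium pump and the cation-chloride cotransporters set the ion gradients that neurons use for firing and for inhibition. The genes described here are the pump beta subunit genes Atp1b1, Atp1b2 and Atp1b3 and the cotransporter genes Slc12a2, Slc12a5 and Slc12a7. They were taken by symbol after the Ensembl identifiers of the count files were matched to mouse gene names. All 6 were found among the 54232 genes in the files, and all 6 were among the 15712 genes with enough reads to be tested.

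RNA was sequenced from 9 libraries labelled as cortical neurons of wild-type CD1 mice, an outbred stock. By their titles, 3 libraries are controls, 3 are PA and 3 are PA + PS2. PA is a peptide amphiphile, in which a short peptide carries a lipid-like chain so that the molecules pack into nanofibres. The PA library names read IKVAV, a cell-binding sequence of laminin, those of PA + PS2 read IKVAV plus PEDOT-S-OH, which belongs to a family of conducting polymers, and those of the controls read PDL. No group carries a genetic change. The treatment field names the peptide amphiphile even for the controls, so the groups follow the titles, and the age of the animals, the time in culture and the dose are not given in the sources used here. The labels do not say whether repeats came from separate cultures, and the p-values cover only the spread between these libraries, which may be technical.

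The pump exchanges sodium for potassium at the expense of ATP and is built from a catalytic alpha subunit and a glycosylated beta subunit, which brings the alpha subunit to the cell surface. In brain, beta 1 (Atp1b1) is the main neuronal form, beta 2 (Atp1b2) was first described as an adhesion molecule on glia, and beta 3 (Atp1b3) is broadly expressed. NKCC1, encoded by Slc12a2, brings chloride into cells together with sodium and potassium. KCC2, encoded by Slc12a5 and found almost exclusively in neurons, carries chloride out together with potassium. As neurons mature, KCC2 rises relative to NKCC1 and the response to GABA shifts from depolarising to inhibitory, so the ratio of Slc12a5 to Slc12a2 is widely used as a sign of maturity. KCC4, encoded by Slc12a7, is a chloride exporter of many epithelia and is sparse in mature neurons.

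Total counts ran from 20746851 to 27237398 per library, and levels are given in CPM, the read count scaled to a common library total. Reads from the neuronal marker genes summed to 6402 to 7655 CPM, with all 7 genes detected in every library. The 8 astrocyte markers summed to 160 to 264 CPM, the 7 mesenchymal markers to 11.3 to 175 CPM, and the 6 choroid plexus markers to 3.65 to 35.8 CPM. The 7 oligodendrocyte lineage markers summed to 44.0 to 76.2 CPM. The 5 microglial markers summed to 2.47 to 5.40 CPM and the 4 endothelial markers to 1.5 to 7.41 CPM, with the microglial gene P2ry12 at 0 counts in 7 libraries and the endothelial gene Cldn5 at 0 in 8. The cultures therefore held transcripts of several cell types beside neurons. In such bulk libraries fewer cells of a type and less RNA per cell cannot be told apart. The share of counts from the mitochondrial genome was lowest in PA repeat 1 (0.342%), next lowest in control repeat 1 (0.531%) and 0.786% to 1.39% elsewhere.

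Slc12a5 (ENSMUSG00000017740, mm10 chromosome 2, 164960802 to 164999731, plus strand) has alternative first exons, known as the starts of the KCC2a and KCC2b forms. The deposited count is a single value per gene, so reads from both starts were summed and the share of each form was not measured. The windows at both RefSeq starts (GRCm38.p6, 250 bases before to 50 after each start) are shown because they are the annotated starts of the gene; which of them these cells used was not measured. Capitals mark the E-box CACGTG, which USF factors bind.
Slc12a5 upstream start, chr2:164960596-164960895, plus strand: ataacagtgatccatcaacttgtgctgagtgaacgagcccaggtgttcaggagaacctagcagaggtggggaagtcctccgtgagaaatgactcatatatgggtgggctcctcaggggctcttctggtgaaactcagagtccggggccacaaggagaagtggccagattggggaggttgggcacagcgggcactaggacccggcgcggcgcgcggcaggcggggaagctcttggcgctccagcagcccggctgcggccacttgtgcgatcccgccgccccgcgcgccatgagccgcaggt
Slc12a5 downstream start, chr2:164967738-164968037, plus strand: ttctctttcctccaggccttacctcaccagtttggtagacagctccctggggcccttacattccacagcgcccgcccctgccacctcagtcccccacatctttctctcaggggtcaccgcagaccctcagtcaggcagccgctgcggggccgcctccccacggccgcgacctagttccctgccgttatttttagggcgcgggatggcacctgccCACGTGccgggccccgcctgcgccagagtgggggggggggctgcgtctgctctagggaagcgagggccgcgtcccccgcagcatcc
The windows lie 7142 bases apart. The E-box was found in the downstream window, starting at position -36 from its start, and not in the upstream one. Among the other genes of the set it was found in 2 of 2 windows of Slc12a7, 1 of 2 of Atp1b3 and 0 of 1 of Atp1b1. On both strands it occurs in 7.15% of all 32851 RefSeq windows of this length. The motif GCGNGGGCG is that of the Egr family, which includes Egr4, a factor known to activate KCC2 transcription. It was found on neither strand of either Slc12a5 window and occurs in 5.55% of all windows. Such matches describe letters and do not show binding.

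The order of the genes was compared per kilobase of annotated exon (RPKM, from the same scaled libraries), since longer transcripts collect more reads. Atp1b1 was the highest of the 6 at 108 RPKM averaged over the 9 libraries. Atp1b2 followed at 21 RPKM and Atp1b3 at 19.3 RPKM. The difference between these neighbours was not tested. Their per-library ratio of Atp1b2 to Atp1b3 ran from 0.919 to 1.55, and Atp1b2 was the higher in 8 of 9 libraries. Slc12a5 stood at 12.3 RPKM, below Atp1b3 in 9 of 9 libraries, although in PA repeat 1 their ratio came down to 1.01. Slc12a2 stood at 5.91 RPKM and Slc12a7 at 1.16 RPKM, each below the preceding gene in 9 of 9 libraries. The annotated exon length of Slc12a7 (12669 bases) and of Slc12a2 (10920 bases) exceeds that of Slc12a5 (7447 bases), and how much of it these cells transcribe was not measured.

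**Figure D1:**
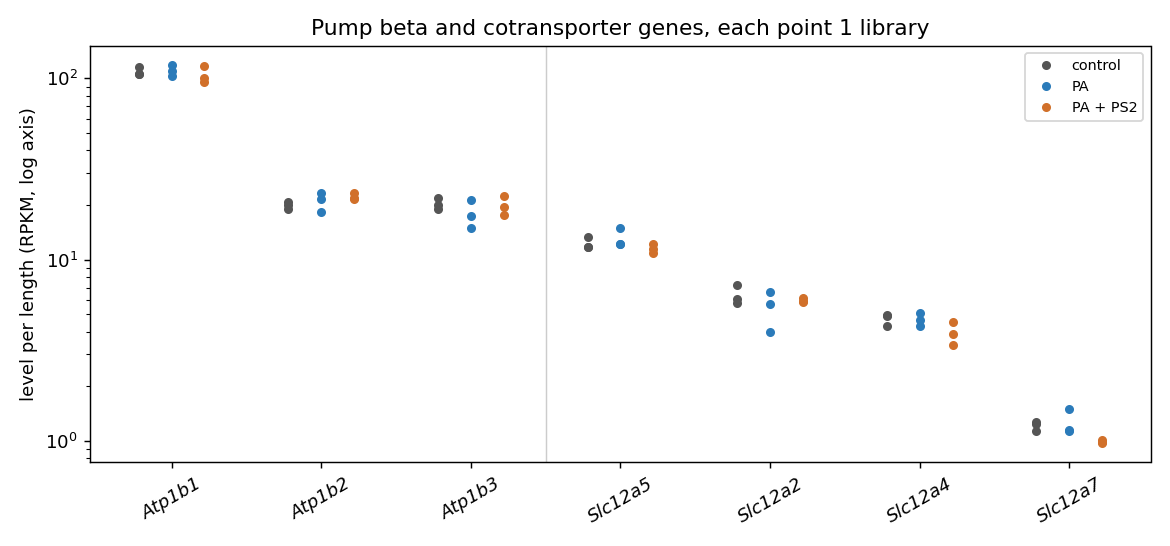
Level per kilobase of exon (RPKM, log axis) of pump beta and cotransporter genes, 1 point per library, coloured by group. Atp1b1 leads the pump beta genes at 108 RPKM on average, Slc12a5 leads the cotransporters shown at 12.3 RPKM, and Slc12a7 is the lowest at 1.16 RPKM.

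Among the beta subunit genes the neuronal form predominated. Of the summed beta subunit RPKM, Atp1b1 made up 72.7% ± 2.09 (SD, n = 9), Atp1b2 14.2% ± 1.56 and Atp1b3 13.0% ± 1.40. Of the summed RPKM of the cotransporter genes Slc12a2, Slc12a5 and Slc12a7, Slc12a5 made up 63.4% ± 4.26 (SD, n = 9), Slc12a2 30.6% ± 4.66 and Slc12a7 5.97% ± 0.674.

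The levels of the beta subunit genes were compared between groups to ask whether the scaffolds went with a different make-up of the pump. Atp1b1 (ENSMUSG00000026576, chromosome 1, 164437109 to 164458355, minus strand) stood at 327, 355 and 325 CPM in control repeats 1, 2 and 3, at 316, 366 and 339 CPM in the PA repeats and at 293, 311 and 361 CPM in the PA + PS2 repeats. The groups overlapped throughout. The log2 fold change was 0.02 ± 0.10 (SE, n = 3 per group) for PA against control, with an unadjusted 95% interval from -13.2% to 18.5%, and -0.06 ± 0.10 for PA + PS2 against control (edgeR adjusted p = 1 for both). An exon of Nme7 on the opposite strand shares 575 bases, or 18.7%, of the Atp1b1 exon sequence, and the strand setting of the counting is not given in the sources used here.

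Atp1b2 (ENSMUSG00000041329, chromosome 11, 69599736 to 69605942, minus strand) stood at 84.4, 77.3 and 81.7 CPM in the controls, at 94.9, 74.6 and 87.7 CPM in PA and at 88.2, 89.5 and 94.7 CPM in PA + PS2. All 3 PA + PS2 libraries lay above all 3 controls, while PA spanned both. The log2 fold change of PA + PS2 against control was 0.16 ± 0.10 (SE, n = 3 per group), from 81.1 ± 3.6 to 90.8 ± 3.44 CPM (SD), and did not pass (edgeR adjusted p = 1). Its unadjusted 95% interval ran from -4.27% to 30.8%. In this comparison 5.38% of all genes tested lay above control without overlap. The summed astrocyte markers ran from 164 to 198 CPM in PA + PS2 and from 160 to 264 CPM in control. Slc1a2 alone averaged 132 CPM over the 9 libraries and was the largest part of the sum. Slc1a3 moved more between these groups, from 48.7 CPM in control to 31.2 CPM in PA + PS2, against 136 and 129 CPM for Slc1a2. Of the 7 astrocyte markers tested, 2 lay above 0 and 5 below, from -1.06 for Gja1 to 1.76 for Gfap, and 0 passed. The part of astrocytes in the Atp1b2 difference was not tested.

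Atp1b3 (ENSMUSG00000032412, chromosome 9, 96332655 to 96364442, minus strand) stood at 47.7, 45.2 and 52.0 CPM in the controls, at 35.8, 41.8 and 50.7 CPM in PA and at 46.6, 42.0 and 53.6 CPM in PA + PS2. PA repeat 1 was the lowest library. In every repeat the PA library was below the control, with a log2 fold change of -0.17 ± 0.14 (SE, n = 3 per group; edgeR adjusted p = 1) and an interval from -28.1% to 9.33%. It was -0.06 without PA repeat 1 and -0.31 without PA repeat 3.

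The chloride cotransporters were compared to ask whether the scaffolds went with a shift toward the mature chloride balance. Slc12a5 stood at 98.9, 87.0 and 87.6 CPM in the controls, at 111, 90.9 and 90.8 CPM in PA and at 90.5, 84.9 and 80.7 CPM in PA + PS2. The highest library was PA repeat 1. Each PA library was above the control of its repeat number, but the groups overlapped, and the log2 fold change was 0.10 ± 0.11 (SE, n = 3 per group; edgeR adjusted p = 1). Without PA repeat 1 it was -0.01. In PA + PS2 each library was below the control of its repeat number, at -0.10 ± 0.11 with an interval from -20.5% to 10.1% (edgeR adjusted p = 1). All 3 PA + PS2 libraries lay below all 3 PA libraries, by -0.19 ± 0.11 (edgeR adjusted p = 1), as did 6.32% of all genes tested, and without PA repeat 1 the difference was -0.09.

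Slc12a2 (ENSMUSG00000024597, chromosome 18, plus strand) stood at 62.7, 65.8 and 79.4 CPM in the controls, at 43.4, 61.9 and 72.2 CPM in PA and at 67.1, 64.8 and 63.6 CPM in PA + PS2. PA repeat 1 was again the extreme library, here the lowest. The PA library was below the control in each repeat, with a log2 fold change of -0.23 ± 0.16 (SE, n = 3 per group; edgeR adjusted p = 1) and an interval from -33.1% to 9.11%. Without PA repeat 1 the change was -0.05. PA + PS2 stood at -0.09 ± 0.16 against control (edgeR adjusted p = 1).

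**Figure D2:**
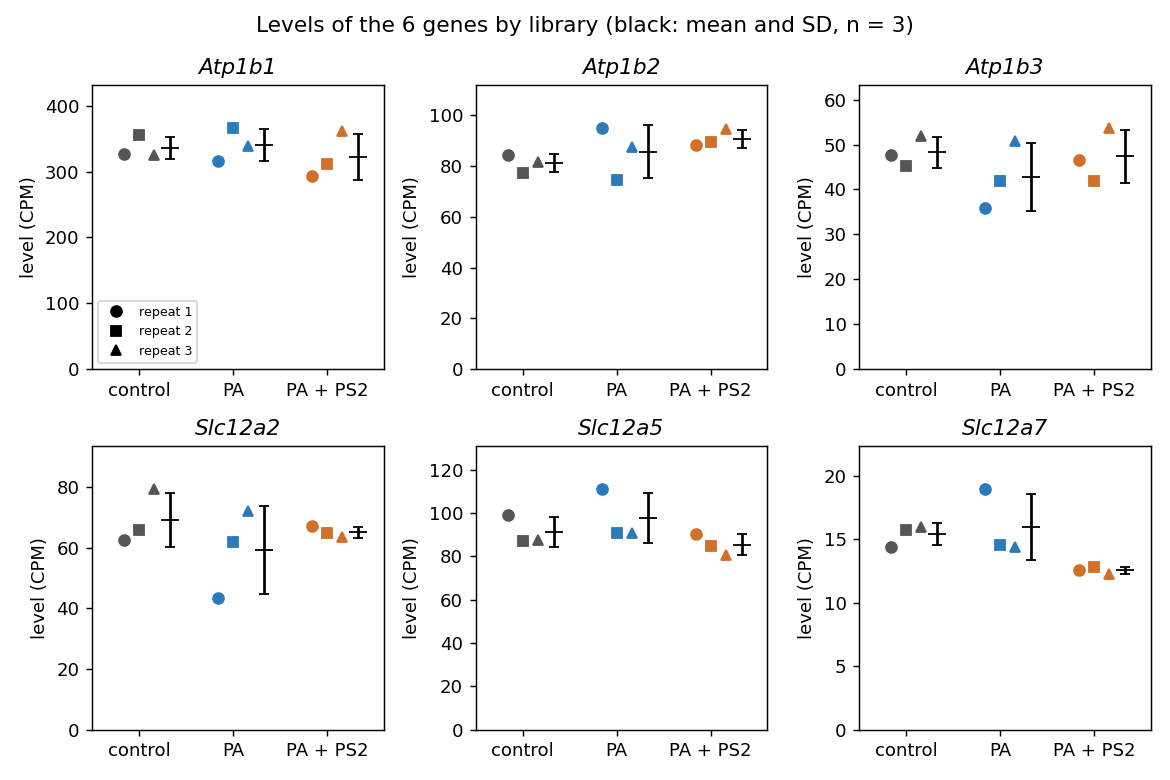
Level in CPM of each of the 6 genes in every library, by group, with marker shapes for the repeats and the mean and SD in black (n = 3). PA repeat 1 is the highest point for Atp1b2, Slc12a5 and Slc12a7 and the lowest for Atp1b3 and Slc12a2, and the PA + PS2 points for Slc12a7 lie below all the others.

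Slc12a7 (ENSMUSG00000017756, chromosome 13, 73733094 to 73816754, plus strand) stood at 14.4, 15.8 and 16.0 CPM in the controls, at 19.0, 14.6 and 14.4 CPM in PA and at 12.6, 12.8 and 12.3 CPM in PA + PS2. The 3 PA + PS2 libraries had an SD of 0.245 CPM and lay below all 6 other libraries. Against control the log2 fold change was -0.30 ± 0.14 (SE, n = 3 per group) and did not pass (edgeR adjusted p = 0.922, unadjusted interval from -34.0% to 0.673%). Against PA it was -0.35 ± 0.14 and did not pass either (edgeR adjusted p = 0.744, with ranks by p of 606 of 15712 genes here and 960 against control). In these comparisons 6.54% and 6.32% of all genes tested lay lower without overlap. The summed level of the mesenchymal markers was lower in the same libraries, with 6 of 6 tested members below 0 and 0 passing, at 11.3 to 51.4 CPM in PA + PS2 against 127 to 175 CPM in control and 80.8 to 137 CPM in PA, and Lum at 0 counts in control repeat 3. The progenitor and cycling markers summed to 124 to 149 CPM in PA + PS2 against 152 to 312 CPM in control and 197 to 273 CPM in PA, with 0 of 6 at 0 counts. Of these 6 genes 5 lay below 0 and Hes5 above it in both comparisons (0.44 against control and 0.11 against PA), Sox2 stood at -0.08 against control, and 0 passed. The part of these cells in the Slc12a7 difference was not tested. Without PA repeat 1 the difference from PA was -0.20.

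Over the 6 genes together, 0 passed in any of the 3 comparisons by the edgeR test, and 0 by DESeq2 or with the repeat number as a block. Of all genes tested, 0 (0%) passed for PA against control, 7 (0.0446%) for PA + PS2 against control and 0 (0%) for PA + PS2 against PA. With the block 184 genes passed for PA + PS2 against control, and DESeq2 passed 0, 208 and 121 genes in the 3 comparisons. At an unadjusted p under 0.05 by edgeR there were 0, 0 and 1 of the 6 genes, where the share of all genes was 1.22%, 5.63% and 5.61%. For PA against control 0 of the 6 genes were without overlap between groups (4.04% of all genes tested, 1.97% higher and 2.07% lower). For PA + PS2 against control there were 2, Atp1b2 and Slc12a7 (11.9%), and for PA + PS2 against PA there were 2, Slc12a5 and Slc12a7, both lower, and 0 higher (9.64%, with 3.32% higher). Fold changes lay above 0 for 4 genes and below for 2 with PA against control (47.2% and 52.8% of all genes). They lay above 0 for 1 and below for 5 with PA + PS2 against control (49.8% and 50.2%), and 3 each way against PA (51.4% and 48.6%). The median log2 fold change of the 6 was 0.04 for PA against control, -0.07 for PA + PS2 against control and 0.00 for PA + PS2 against PA, beside -0.01, -0.00 and 0.01 over all genes tested. The first 2 comparisons share the control libraries and the others share a group as well, so they are not independent.

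**Figure D3:**
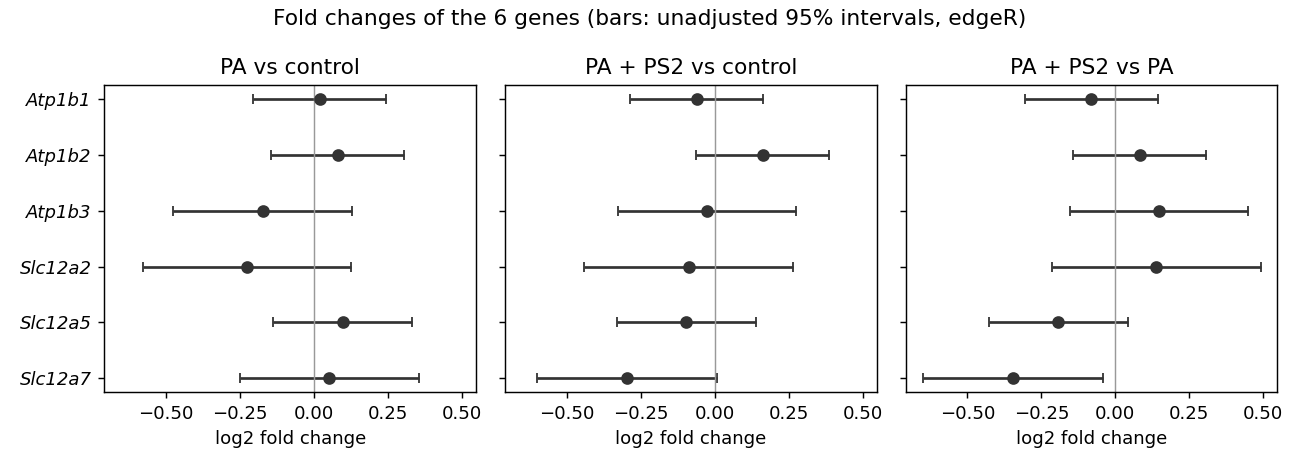
Log2 fold change (x axis) of the 6 genes in each comparison, with unadjusted 95% intervals from the edgeR fit (n = 3 per group). Of the 18 intervals, 17 include 0, and that of Slc12a7 for PA + PS2 against PA ends at -0.04.

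The ratio of Slc12a5 to Slc12a2 reads was taken within each library, so it needs no scaling between libraries. It covers all cells of a culture, not neurons alone, and which cell types gave the Slc12a2 reads was not measured. In control repeats 1, 2 and 3 the ratio was 1.58, 1.32 and 1.1. With PA it was 2.55, 1.47 and 1.26, and with PA + PS2 it was 1.35, 1.31 and 1.27. Slc12a5 reads were in excess in 9 of 9 libraries, and per length the ratio was 1.62 to 3.75. PA repeat 1 stood alone at 2.55, with an exact (Clopper-Pearson) 95% counting interval of 2.37 to 2.76, and the next library, control repeat 1, was at 1.58 (1.48 to 1.68). These intervals cover counting error only. In each group repeat 1 had the highest ratio and repeat 3 the lowest.

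The group means of the ratio were 1.33 ± 0.238 in control, 1.76 ± 0.696 in PA and 1.31 ± 0.0398 in PA + PS2 (SD, n = 3). PA was above control in 3 of 3 repeats, by 0.70, 0.15 and 0.19 on the log2 scale and by 0.35 on average, which was less than the SD of 0.54 within PA (exact permutation test, 2-sided, p = 0.5, adjusted p = 0.75 over 12 ratio tests, with 0.1 the smallest p that 3 against 3 allows). Without PA repeat 1 the mean difference was 0.04. PA + PS2 differed from control by -0.01, with 1 of 3 repeats higher (exact permutation p = 0.9, adjusted p = 0.9), and from PA by -0.36 (exact permutation p = 0.4, adjusted p = 0.686). Without PA repeat 1 the last difference was -0.05. The PA + PS2 libraries spanned 1.27 to 1.35, all inside the control range of 1.1 to 1.58.

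**Figure D4:**
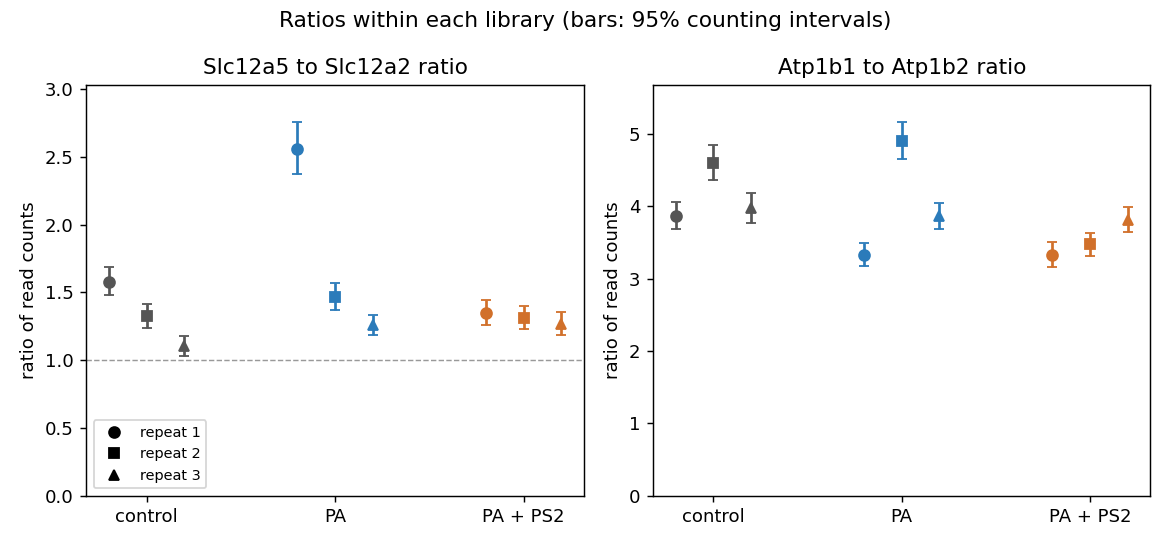
Ratio of read counts of Slc12a5 to Slc12a2 (left, dashed line at 1) and of Atp1b1 to Atp1b2 (right) in every library, with exact 95% counting intervals. PA repeat 1 is the highest point on the left at 2.55, and on the right the PA + PS2 points (3.33 to 3.81) lie below the control points (3.87 to 4.60).

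PA repeat 1 also differed in other genes of the set. Its Slc12a7, Slc12a5 and Atp1b2 levels were the highest of the 9 libraries and its Slc12a2 and Atp1b3 levels the lowest. Its neuronal markers summed to 7445 CPM and its astrocyte markers to 208 CPM, both inside the range of the other libraries. Single neuronal markers were at the extremes of the 9 libraries, with Tubb3 (3069 CPM) and Rbfox3 (132 CPM) the highest and Map2 (1767 CPM) and Snap25 (171 CPM) the lowest. Single astrocyte markers of PA repeat 1 were too, with Slc1a2 (109 CPM) the lowest and the sparse Aqp4 (1.66 CPM) and S100b (0.495 CPM) the highest. Its mitochondrial share was also the lowest of the 9. Whether RNA quality or composition plays a part in its ratio was not tested. PA repeat 2 was extreme in other ways, with the highest Atp1b1 level (366 CPM) and the lowest Atp1b2 level (74.6 CPM). It also had the highest mitochondrial share (1.39%) and the most genes detected (24702).

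The ratio of Atp1b1 to Atp1b2 reads, the main neuronal over the glia-linked beta subunit, was 3.87, 4.60 and 3.97 in the controls, 3.33, 4.90 and 3.86 in PA and 3.33, 3.47 and 3.81 in PA + PS2. All PA + PS2 libraries lay below all controls, by -0.23 on the log2 scale (exact permutation p = 0.1, the smallest possible, adjusted p = 0.6), and by -0.15 without control repeat 2. PA overlapped both groups, with PA repeat 2 (4.90) above all controls and the other PA libraries below them. Without PA repeat 2, PA differed from control by -0.21, against -0.05 with it. PA + PS2 then differed from PA by -0.02, against -0.17 with it. The ratio of Slc12a5 to Slc12a7 reads was 6.86, 5.52 and 5.47 in the controls, 5.85, 6.24 and 6.31 in PA and 7.21, 6.64 and 6.55 in PA + PS2. Here all PA + PS2 libraries lay above all PA libraries, by 0.15 (exact permutation p = 0.1, adjusted p = 0.6), and above control in 3 of 3 repeats with overlap. The ratio of Atp1b1 to Atp1b3 reads was 6.99 ± 0.819 in control, 8.09 ± 1.22 in PA and 6.81 ± 0.559 in PA + PS2 (SD, n = 3), and the groups overlapped.

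The other genes of the pathway were taken from lists chosen by function. Of 7 FXYD genes, whose small membrane proteins modulate the pump, 4 were tested and 0 passed in any comparison. Fxyd6, found in brain, was the highest at 75 RPKM, and Fxyd7, also a brain form, stood at 4.11 RPKM. Fxyd2 and Fxyd5 stood at 0.171 and 0.09 RPKM. Fxyd1, a form of glia and muscle, was too low to test. Of 5 other Slc12 genes considered, 3 were tested and 0 passed. Slc12a9 stood at 3.56 RPKM and Slc12a8 at 0.168 RPKM. The renal cotransporter genes Slc12a1 and Slc12a3 were too low to test. Slc12a4, which encodes the chloride exporter KCC1, stood at 4.43 RPKM on average. Its log2 fold change in PA + PS2 against control was -0.27 ± 0.14 (SE, n = 3 per group, edgeR adjusted p = 1). It was -0.17 without PA + PS2 repeat 3 and -0.37 without PA + PS2 repeat 1. For PA against control Slc12a4 stood at -0.02, Slc12a9 at 0.02 and Slc12a8 at 0.64 ± 0.46. The sparse Slc12a8 lay above control there without overlap, as did 1.97% of all genes tested.

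The kinases that switch these cotransporters by phosphorylation were all detected. The list held the WNK kinases, the kinases Stk39 and Oxsr1 (SPAK and OSR1) that they activate, and the cofactors Cab39 and Cab39l. Wnk2 was the most abundant per length at 38.7 RPKM, followed by Cab39 at 30.8, Oxsr1 at 17.3 and Stk39 at 11.3 RPKM. Wnk1 stood at 9.82 and Wnk3 at 9.0 RPKM. Of the 8 genes 0 passed, and the list's median log2 fold change was -0.07 for PA against control and 0.02 for PA + PS2 against control. Among 7 partners and regulators of KCC2, Ckb, a brain creatine kinase that binds KCC2, stood at 106 RPKM, Epb41l1 at 43.0 RPKM, the KCC2 partner Neto2 at 27.7 RPKM and the BDNF receptor Ntrk2 at 27.6 RPKM. Of the 7 genes 0 passed, with medians of -0.04 and -0.09. Egr4, named here after its values were seen, had the largest change of the list, at -1.19 ± 0.50 in PA + PS2 against control (SE, n = 3 per group; edgeR adjusted p = 0.758), with 3.29, 2.09 and 0.967 CPM in control against 1.06, 0.694 and 1.04 CPM in PA + PS2. Among 12 genes of other chloride, bicarbonate and proton transport, led in reads by the chloride transporter genes Clcn4, Clcn6 and Clcn3 (38.7, 43.2 and 11.9 RPKM) and the sodium-driven exchanger gene Slc4a8 (10.2 RPKM), 0 passed, with medians of -0.05 and -0.02.

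The genes whose log2 level followed each of the 6 most closely over the 9 libraries were taken from 9106 other protein-coding genes of at least 10 CPM. These correlations are descriptions over 9 libraries that share groups, repeat numbers and scaling, and the highest of so many is large by selection. For Slc12a5 they were Chd5, Shank1 and Numa1 (Pearson r = 0.97, 0.97 and 0.95). For Slc12a2 they were Nectin3, Eny2 and Odr4 (0.98, 0.98 and 0.98), and for Slc12a7 Plxnb2, Nfic and Fam120a (0.95, 0.94 and 0.94). For Atp1b1 they were Igbp1, Serpine2 and Ptpra (0.86, 0.85 and 0.84), for Atp1b2 Tmem164, Mpped1 and Klhl29 (0.98, 0.98 and 0.98), and for Atp1b3 Cmtr2, Fstl5 and Coq3 (0.97, 0.97 and 0.96). Among the 6 genes themselves the highest correlation was between Atp1b3 and Slc12a2 (r = 0.81) and the lowest between Slc12a2 and Slc12a5 (r = -0.73), and PA repeat 1 is an extreme library in both.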

How the data were processed

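RNA sequencing libraries were grouped by their titles. The authors deposited whole-number read counts for each Ensembl gene, not normalized. Per the submitters' processing notes, the tools were STAR 2.7.5, cutadapt 4.2, DESeq2 1.14.1 and HTSeq 2.0.2 with build mm10. Roles, annotation and strand setting are not given in the sources used here. The labels give both polyA RNA and a total RNA kit, so RNA selection is not settled. Names and exon lengths came from GENCODE M21, of the same build, which matched 54165 of 54232 identifiers. Promoter windows are from RefSeq (GRCm38.p6), which held windows for Atp1b1, Atp1b3, Slc12a5 and Slc12a7.

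All 9 libraries entered a single 2-sided quasi-likelihood fit in edgeR 4.0.16 (R 4.3.3) with 6 residual degrees of freedom, TMM scaling and filterByExpr (minimum count 10, total 15). P-values were adjusted by Benjamini and Hochberg over 15712 genes, with a threshold of 0.05. The SE of a log2 fold change is its size divided by the root of F, and intervals use its t quantile. The fit was tested on simulated counts with no repeat effect and with planted changes larger than any that the 6 genes showed. This test does not show how often changes of their size would be found. Ratios used exact permutation tests over libraries. DESeq2 1.42.0 was an alternative. The genes and lists were chosen with earlier results of these data known. Pathway genes were named by read level and the other Slc12 genes in full. Exceptions are Egr4 and the per-length values of Oxsr1 and Stk39. Some genes of the planned lists are not reported here.

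Same-numbered libraries deviated together across genes in PA and control (r = 0.39, 0.36 and 0.26 for repeats 1, 2 and 3) and in PA + PS2 and control (0.17, 0.20 and 0.11), so the repeat number was used as a pairing block in an alternative fit. The data, not the labels, give this pairing.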

Additional observations from a re-analysis of the deposited data

How the results depend on the processing

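None of the 6 genes passed in any of 17 settings, the main one included, and 3 libraries per group limit the precision, as do the 261 to 422 reads per library for Slc12a7. The count of all genes passing for PA + PS2 against control, 7 in the main test, was 17 with DESeq2 size factors, 208 with DESeq2, 365 with no filter on low counts, 184 with the replicate block, 28 with only the 2 groups fitted and 0 to 175 when a single library was left out (0 without PA + PS2 repeat 1, control repeat 2 or control repeat 3, 175 without control repeat 1). For PA + PS2 against PA it was 0 in the main test, 121 with DESeq2, 330 with no filter, 57 with the replicate block and 0 to 37 with a library left out. For PA against control it was 0, and 23 with no filter. Without PA repeat 2, 684 genes had an unadjusted p under 0.05 by edgeR in that comparison, against 192 in the main test. The pairing correlations of PA + PS2 and PA were 0.01, 0.29 and 0.27, so the block is given for that comparison only here. With repeats 2 and 3 alone, a setting chosen after seeing the data, 125 and 3 genes passed for PA + PS2 against control and against PA. The cause of these moves was not tested, apart from the smaller numbers of libraries or larger numbers of genes that some settings hold.

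The replicate block changed no call of a gene named here, and for the ratios its exact sign-flip p could not go below 0.25. With repeats 2 and 3 alone the sign turned for Slc12a7 in PA against control (-0.13), for Slc12a2 (-0.0612) in PA + PS2 against PA, and for the ratios of Slc12a5 to Slc12a2 (0.0943) and Atp1b1 to Atp1b3 (0.0103) in PA + PS2 against control and Atp1b1 to Atp1b2 in PA against control (0.026). Leaving out single libraries turned the sign of small differences. For PA against control the log2 values ran from -0.0428 to 0.0698 for Atp1b1, -0.00589 to 0.16 for Slc12a5 and -0.0892 to 0.13 for Slc12a7. The log2 ratio of Atp1b1 to Atp1b2 ran from -0.21 to 0.0738 and that of Slc12a5 to Slc12a7 from -0.00557 to 0.16 there. For PA + PS2 against control they ran from -0.15 to 0.0118 for Atp1b1, -0.12 to 0.0584 for Atp1b3 and -0.15 to 0.0216 for Slc12a2, from -0.14 to 0.12 for the ratio of Slc12a5 to Slc12a2 and from -0.11 to 0.0546 for that of Atp1b1 to Atp1b3. For PA + PS2 against PA they ran from -0.0392 to 0.31 for Slc12a2. Slc12a7 in PA + PS2 against control kept its direction in those 17 settings, from -0.34 to -0.27, and Atp1b2 from 0.13 to 0.21.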
